A study of Mus musculus with 20 samples.

Results

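The potassium channel genes of mouse islets were taken from a table of raw read counts per gene. The set comprised every protein-coding gene with a symbol that starts with Kcn, together with Abcc8 and Abcc9, which encode the sulfonylurea receptor subunits of ATP-sensitive potassium (KATP) channels. By this rule 96 genes were found in the annotation and 92 had a row among the 28632 genes of the table. The other 4, Kcne1, Kcng1, Kcns1 and Kcnv1, were not analysed here. Of the 92 genes, 58 were detected, meaning a mean of at least 0.5 CPM (counts relative to the size of the library, scaled by the TMM method) over all 20 libraries. Of all genes in the table, 15028 reached that level. The remaining 34 potassium channel genes had means between 0.00375 and 0.478 CPM, and 21 of them were under 0.1 CPM.

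The islets came from 12-week-old mice of both sexes, and the labels give a sex and an age for each library. Ctrl islets (n = 6, 3 females and 3 males) carry the genotype label wild type, and the study pooled littermates with Ins1-Cre alone and with floxed alleles alone as controls. The β-Mfn1KO (Mfn1-/-, n = 4, 3 females and 1 male), β-Mfn2KO (Mfn2-/-, n = 5, 2 females and 3 males) and β-Mfn1/2DKO (Mfn1/2-/-, n = 5, 2 females and 3 males) islets carry the floxed gene or genes and Ins1-Cre, which is active in β-cells. Whole islets also contain α-, δ- and PP-cells, vessels and traces of exocrine tissue in which the floxed genes are not deleted, and all islets were kept in culture for 24 h before RNA extraction. In such bulk RNA, fewer cells of a type and less RNA per cell cannot be told apart.

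Libraries held 12400687 to 20329064 counts in Ctrl, 15745680 to 16685381 in β-Mfn1KO, 15110046 to 59533407 in β-Mfn2KO and 65533388 to 122947313 in β-Mfn1/2DKO. Depth therefore went with genotype, and low genes are measured less precisely in Ctrl. The targeted genes followed the labels. Mfn1 was at 36.6 to 43.6 CPM in Ctrl and 15.01 to 18.6 in β-Mfn1KO, and Mfn2 was at 74.6 to 105.6 CPM in Ctrl and 35.6 to 40.8 in β-Mfn2KO. In β-Mfn1/2DKO, Mfn1 was at 16.6 to 25.6 CPM and Mfn2 at 48.8 to 51.5 CPM. β-cell markers were abundant in every library, and all 10 of the list fell in β-Mfn1/2DKO against Ctrl (median log2 fold change -1.05). β-Mfn1/2DKO replicates 4 and 5 stood apart by their acinar markers, whose summed level was 25264 and 66210 CPM against 684 to 1132 CPM in replicates 1 to 3, and β-Mfn2KO replicate 4 had 10873 CPM against 792 to 2651 CPM in the rest of its group. Results that rest on β-Mfn1/2DKO replicates 4 and 5 are given with and without them.

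Potassium channels carry the outward current that sets the resting potential of β-cells and ends their action potentials. In a β-cell at low glucose, KATP channels built from the pore subunit Kir6.2 (Kcnj11) and the sulfonylurea receptor SUR1 (Abcc8) hold the membrane negative. Glucose metabolism raises ATP, the channels close, the cell depolarises and calcium enters, and voltage-gated and calcium-activated potassium channels then repolarise it. Vascular smooth muscle and pericytes use another KATP channel, built from Kir6.1 (Kcnj8) and SUR2 (Abcc9). Tandem-pore channels give leak currents, and inward rectifiers other than KATP include the strong rectifiers and the G protein-gated channels.

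Of the 92 genes, 69 had an entry among the RefSeq promoter sequences (build GRCm38.p6). Kcnj8 and Abcc9 are shown because these neighbours moved together in β-Mfn1/2DKO. Kcnj12 and Kcnh2 are shown because their difference from Ctrl passed in all 12 alternative fits, with no fold change required. Kcnj8 and Kcnj5 passed in these 12 fits as well, and the Kcnj5 window is not shown. In the GENCODE annotation the Kcnj8 and Abcc9 windows lie just before the gene, and the Kcnj12 and Kcnh2 windows lie within an intron of the gene, since longer transcripts start further upstream. Each run covers the 200 bases from 250 to 51 bases before the RefSeq start site, 5′ to 3′ on the gene's strand. Capitals mark the GC box GGGCGG on either strand. Kcnj8 lies on the minus strand (chr6:142571665-142571864), Abcc9 on the minus strand (chr6:142702325-142702524), Kcnj12 on the plus strand (chr11:61065554-61065753) and Kcnh2 on the minus strand (chr5:24329642-24329841).
Kcnj8: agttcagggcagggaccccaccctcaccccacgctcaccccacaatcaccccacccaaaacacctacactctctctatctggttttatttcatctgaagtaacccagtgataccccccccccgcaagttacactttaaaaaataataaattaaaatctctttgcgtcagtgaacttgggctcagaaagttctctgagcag
Abcc9: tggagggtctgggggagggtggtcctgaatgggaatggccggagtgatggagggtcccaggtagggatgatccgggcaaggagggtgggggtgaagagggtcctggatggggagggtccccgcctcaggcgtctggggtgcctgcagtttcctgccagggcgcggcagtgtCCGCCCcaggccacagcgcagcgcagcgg
Kcnj12: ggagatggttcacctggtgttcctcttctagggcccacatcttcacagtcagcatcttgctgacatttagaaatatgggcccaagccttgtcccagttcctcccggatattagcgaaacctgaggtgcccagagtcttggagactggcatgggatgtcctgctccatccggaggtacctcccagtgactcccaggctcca
Kcnh2: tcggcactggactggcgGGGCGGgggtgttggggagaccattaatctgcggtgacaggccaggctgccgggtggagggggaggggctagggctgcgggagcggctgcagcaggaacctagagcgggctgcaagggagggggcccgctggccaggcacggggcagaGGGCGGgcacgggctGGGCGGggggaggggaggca
The GC box was found 3 times in the Kcnh2 window, once in the Abcc9 window on the opposite strand, and not in those of Kcnj8 and Kcnj12. It occurred in 24.6% of all 32851 promoter windows of this length and in 34% of the 94 windows of potassium channel genes. None of the 4 windows held the E-box CACGTG (4.34% of all windows), the cyclic AMP response element TGACGTCA (0.828%), the C/EBP-ATF response element TGATGNAAN (2.69%) or TATAAA (9.14%), each searched on both strands. These matches are descriptions of letters and not of binding.

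Expressed per kb of exon (RPKM, from TMM-scaled counts), a few genes made up most of the potassium channel RNA of islets. Abcc8 had the highest mean over the 20 libraries with 120 RPKM, followed by the tandem-pore channel TALK-1 (Kcnk16) with 107 RPKM and by Kcnj11 with 53.1 RPKM. These 3 genes accounted for 61% of the summed level of all 92. The next were Kcnh2, the pore of the ERG1 delayed rectifier, with 31.3 RPKM, and Kcnmb2, an auxiliary subunit of the large-conductance calcium-activated (BK) channel, with 28.9 RPKM. Kcnh6 (ERG2) had 15.5 RPKM, Kcnk1 (TWIK-1) 15.3 and the Kv4-binding protein gene Kcnip1 10.8. By class, the 4 KATP genes held 37.9% of the summed level, 14 tandem-pore genes 30.2%, and 30 voltage-gated pore genes 17.1%. The 4 BK auxiliary genes held 6.38%, the 12 voltage-gated auxiliary genes 4.37%, the 8 calcium- or sodium-activated genes with Kcnu1 2.01%, the other 13 inward rectifiers 1.71% and the 7 electrically silent voltage-gated subunits 0.379%.

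**Figure D1:**
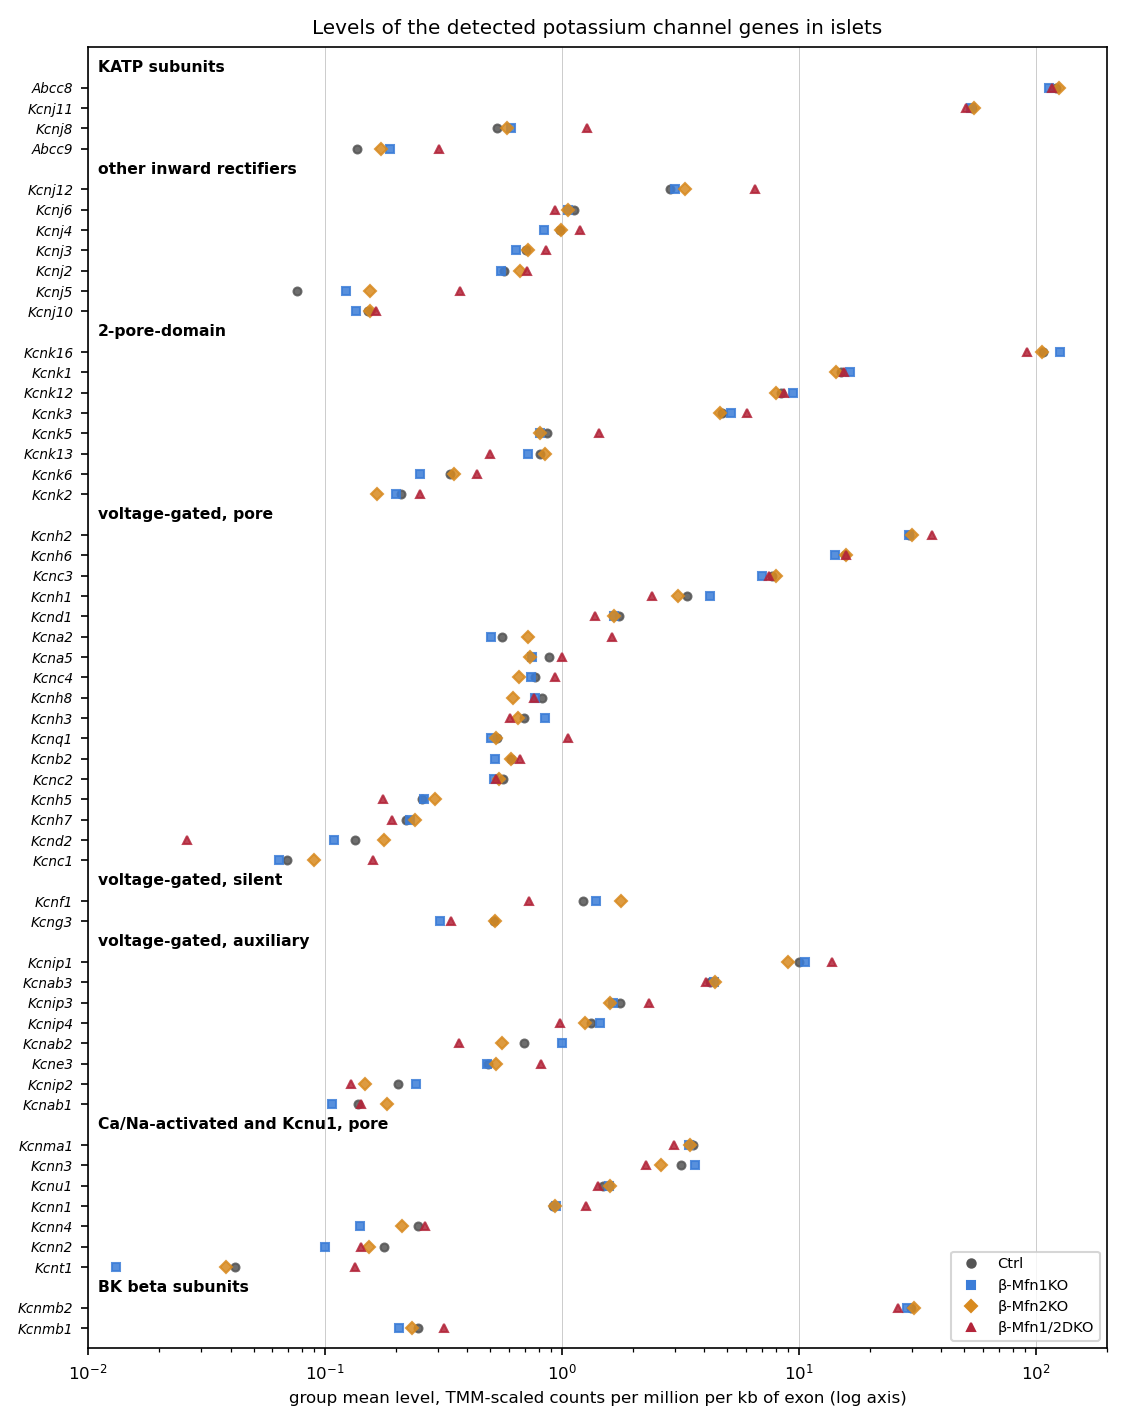
Mean level of 55 detected potassium channel genes in Ctrl, β-Mfn1KO, β-Mfn2KO and β-Mfn1/2DKO islets, in RPKM (TMM-scaled) on a log axis, grouped by channel class. Levels span from under 0.1 to over 100 and the 4 genotypes lie close together for most genes, whereas the triangles of β-Mfn1/2DKO lie to the right for Kcnj8, Abcc9, Kcnj12, Kcnj5, Kcna2 and Kcnt1 and to the left for Kcnd2.

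The summed level of all 92 genes was 459 ± 21.7 RPKM (SD) in the 6 Ctrl libraries, 468 ± 18.7 in β-Mfn1KO (n = 4), 463 ± 31.0 in β-Mfn2KO (n = 5) and 450 ± 42.7 in β-Mfn1/2DKO (n = 5). Thus the differences in the total were smaller than the spread between libraries. Within it, the 13 inward rectifiers other than KATP summed to 6.57 ± 0.431 RPKM in Ctrl and 11.1 ± 0.996 in β-Mfn1/2DKO, the strong rectifier Kcnj12 being the most abundant of them.

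To learn which potassium channel genes differed after loss of both mitofusins, β-Mfn1/2DKO islets were compared with Ctrl in one edgeR quasi-likelihood fit over all genes, and a gene passed at an adjusted p under 0.05 (Benjamini-Hochberg over all 28632 genes). Of the 92 genes 23 passed (25%), 15 higher and 8 lower in β-Mfn1/2DKO. Over all genes tested 16.5% passed, 9.59% higher and 6.86% lower. Among genes with a mean of at least 0.5 CPM, 21 of 58 potassium channel genes passed (36.2%) against 29.5% of all genes. With a fold change over 1.5 in addition, 15 of the 92 passed, 11 higher and 4 lower, against 5.21% of all genes. Of the 58 detected genes 13 passed both, and the share of all genes at that level is not given here. The median log2 fold change of the 92 genes was 0.20, and that of all genes 0.06.

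The counts by class are small, and no test compared the classes. For comparison, 16.5% of all genes passed, and 29.5% of those with a mean of at least 0.5 CPM. Of the KATP genes 2 of 4 rose, and of the other inward rectifiers 4 of 13 rose. Only 7 of these 13 were detected, and 2 of the 7 rose. The other risen ones, Kcnj1 and Kcnj14, were below the detection level. Among voltage-gated pore genes 5 of 30 rose and 2 fell, among voltage-gated auxiliary genes 1 of 12 rose and 2 fell, and 1 of the 7 silent subunits fell. Among tandem-pore genes 1 of 14 rose and 1 fell, among calcium- or sodium-activated genes 2 of 8 rose and 2 fell, and none of the 4 BK auxiliary genes passed. In these classes 4 KATP, 20 voltage-gated pore, 8 voltage-gated auxiliary and 2 silent genes were detected. So were 8 tandem-pore, 7 calcium- or sodium-activated and 2 BK auxiliary genes. Apart from Kcnj1 and Kcnj14, every gene that passed was detected.

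Scaling and depth moved these counts. When libraries were scaled by total count alone, 20 genes passed higher and 4 lower, while the median of all genes moved from 0.06 to 0.19. Of all 28632 genes 5393 then passed higher and 949 lower, against 2745 and 1965 before. All 23 genes kept their sign in each alternative in which they were tested. When depth above 40000000 counts was entered as a covariate, 4 genes passed (Kcnh2, Kcnj12, Kcnj8 and Kcnj5), and depth cannot be told apart from genotype in the comparison with Ctrl. Depth class varied within β-Mfn2KO only, so the covariate was set by β-Mfn2KO replicates 4 and 5 against replicates 1 to 3. Both of these deep β-Mfn2KO libraries are male, replicate 4 was rich in acinar markers and replicate 5 in macrophage markers. Of all 28632 genes, 728 passed with that covariate and 4710 without it. Without β-Mfn1/2DKO replicates 4 and 5, 18 genes passed, 16 of them among the 23, and 3221 of all 28632 genes passed.

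The β-cell KATP pair did not differ detectably in whole-islet RNA, and the part of other islet cells in its level was not tested. Abcc8 was at 971, 922, 1109, 972, 1013 and 943 CPM in Ctrl and at 1022, 1079, 1013, 825 and 811 CPM in β-Mfn1/2DKO replicates 1 to 5. Kcnj11 was at 193 to 204 CPM in Ctrl (median 197) and at 203, 217, 203, 162 and 148 CPM in β-Mfn1/2DKO. For both genes β-Mfn1/2DKO replicates 1 to 3 lay within or above the Ctrl range, and replicates 4 and 5, those with high acinar markers, lay below it.

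The log2 fold change was -0.06 ± 0.08 (SE) for Abcc8 (95% interval -0.22 to 0.10, adjusted p = 0.68) and -0.08 ± 0.08 for Kcnj11 (95% interval -0.24 to 0.07, adjusted p = 0.539). Without replicates 4 and 5 the values were 0.09 (adjusted p = 0.544) and 0.09 (adjusted p = 0.309). The intervals leave room for a fall of up to 0.24 on the log2 scale. In the same libraries the β-cell marker list had a median of -1.05, with Ins1 at -2.6, the glucose transporter gene Slc2a2 at -1.60 and the transcription factor gene Mafa at -1.31. Abcc8 and Kcnj11 are adjacent on chromosome 7 (46104523 to 46180033 and 46093953 to 46100764, GRCm38, both on the minus strand), with 3.76 kb between them.

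The vascular-type pair rose. Kcnj8 was at 0.847 to 2.04 CPM in Ctrl (median 1.34), 1.39 to 1.68 in β-Mfn1KO, 1.08 to 1.84 in β-Mfn2KO, and 3.11, 2.95, 2.68, 3.97 and 3.63 CPM in β-Mfn1/2DKO. Abcc9 was at 0.915 to 1.47 CPM in Ctrl (median 1.11), 1.15 to 1.98 in β-Mfn1KO, 1.11 to 1.75 in β-Mfn2KO, and 2.16, 2.17, 2.28, 3.47 and 2.6 CPM in β-Mfn1/2DKO. Every β-Mfn1/2DKO library lay above every library of the other 3 groups for both genes.

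Kcnj8 rose by a log2 fold change of 1.26 ± 0.20 (adjusted p = 0.000128) and Abcc9 by 1.16 ± 0.20 (adjusted p = 0.00021). Against β-Mfn2KO the log2 fold changes were 1.15 ± 0.21 (adjusted p = 0.000607) and 0.79 ± 0.20 (adjusted p = 0.00806). Raw counts were low in Ctrl, 10 to 29 per library for Kcnj8 and 13 to 20 for Abcc9, against 241 to 419 and 173 to 367 in the deeper β-Mfn1/2DKO libraries. Without replicates 4 and 5 the log2 fold changes against Ctrl were 1.12 (adjusted p = 0.00189) and 0.98 (adjusted p = 0.00335). With depth class as a covariate Abcc9 did not pass (0.72, adjusted p = 0.343). These genes are also neighbours, on chromosome 6 (142564837 to 142571614 and 142587862 to 142702315, both on the minus strand), 16.2 kb apart.

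**Figure D2:**
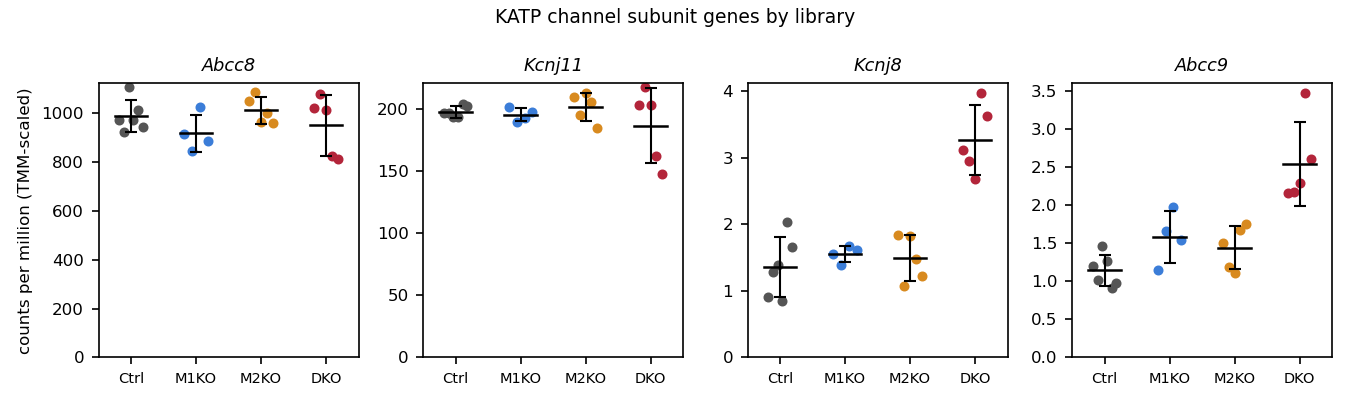
The 4 KATP subunit genes in TMM-scaled CPM by library (points), with the group mean and SD (bars); M1KO, M2KO and DKO stand for β-Mfn1KO, β-Mfn2KO and β-Mfn1/2DKO. Abcc8 and Kcnj11 overlap between all groups, whereas all 5 β-Mfn1/2DKO libraries lie above every other library for Kcnj8 and Abcc9.

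The balance within the KATP family was compared as ratios of levels per exon length, library by library. The ratio of Abcc8 to Kcnj11 averaged 2.27 (SD 0.179) over the 6 Ctrl libraries and 2.32 (SD 0.0997) over the 5 β-Mfn1/2DKO libraries, which did not differ beyond the spread (two-sided exact permutation p = 0.515). The ratio of Kcnj8 to Kcnj11 was 0.00984 ± 0.00309 in Ctrl and 0.0263 ± 0.00837 in β-Mfn1/2DKO, with no overlap between groups (exact permutation p = 0.00433, 0.026 after Benjamini-Hochberg adjustment over 12 ratio tests). The ratio of Abcc9 to Abcc8 was 0.00111 ± 0.00016 and 0.00267 ± 0.000908 (exact permutation p = 0.00433, adjusted 0.026). This is the smallest p that 6 against 5 libraries allow. Kcnj8 and Abcc9 themselves did not overlap between these groups, so these ratio tests restate their rise and are no further support. The ratios are taken over whole islets and not within a cell type. In every β-Mfn1/2DKO library the vascular-type pore still stood at 0.0355 of the β-cell pore per length or less.

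Markers of vascular cells were counted in the same comparison, and the 2 lists differed. Of all genes 16.5% passed there, and 29.5% of those with a mean of at least 0.5 CPM. All 8 endothelial markers rose in β-Mfn1/2DKO (median log2 fold change 0.67), and their summed level was 132 to 204 CPM in Ctrl and 193 to 307 CPM in β-Mfn1/2DKO. Of 8 pericyte and stellate markers 3 rose (Pdgfrb, Des and Mcam), with a list median of 0.48 and a summed level of 33.9 to 72.4 CPM in Ctrl and 45.6 to 79.2 in β-Mfn1/2DKO. No marker of either list was at 0 in all Ctrl or in all β-Mfn1/2DKO libraries.

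The β-Mfn1/2DKO library with the lowest endothelial sum (193 CPM) had 4.96 CPM of Kcnj8 and Abcc9 together, and the Ctrl library with the highest (204 CPM) had 2.96 CPM. The Ctrl library with the highest pericyte sum (replicate 6, 72.4 CPM) had 2.63 CPM of the pair, and β-Mfn1/2DKO replicate 5, at 74.6 CPM, had 6.23 CPM. Both of these libraries stood apart in other markers, replicate 6 of Ctrl with a macrophage sum of 554 CPM and replicate 5 of β-Mfn1/2DKO with its acinar sum of 66210 CPM. The part of vascular cell number in the rise of the pair was not tested.

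**Figure D3:**
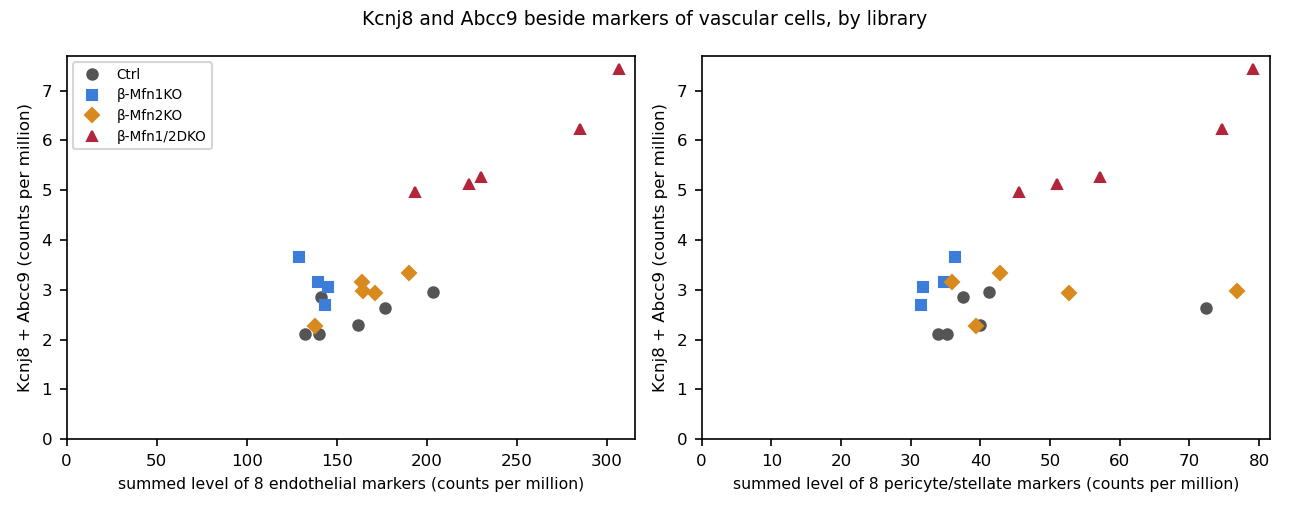
Summed level of Kcnj8 and Abcc9 against the summed level of 8 endothelial markers (left) and of 8 pericyte and stellate markers (right), all in TMM-scaled CPM, 1 point a library. β-Mfn1/2DKO libraries lie at 4.96 CPM or above and all other libraries at 3.66 CPM or below. The marker sums of the groups overlap, and the part of vascular cell number was not tested.

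Among the other inward rectifiers, Kcnj12 (Kir2.2, a strong rectifier that stabilises the resting potential of excitable cells) rose from 5.17 to 10.3 CPM in Ctrl (median 8.01) to 19.4, 21.6, 20.6, 16.4 and 12.4 CPM in β-Mfn1/2DKO. The β-Mfn1KO libraries were at 5.93 to 10.4 CPM and the β-Mfn2KO libraries at 7.03 to 11.9 CPM, so the lowest β-Mfn1/2DKO library was above all others. The log2 fold change was 1.2 ± 0.18 (edgeR adjusted p = 6.33e-05), and it was 1.41 without replicates 4 and 5 and 1.69 with depth class as a covariate.

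Kcnj5 (Kir3.4, a G protein-gated subunit) was at 0.0704 to 0.562 CPM in Ctrl, 0.36 to 0.674 in β-Mfn1KO, 0.455 to 1.02 in β-Mfn2KO and 2.73, 2.27, 1.18, 1.28 and 1.28 CPM in β-Mfn1/2DKO. Its groups did not overlap with β-Mfn1/2DKO, and the log2 fold change was 2.26 ± 0.34 (adjusted p = 6.64e-05), on 1 to 11 reads per Ctrl library. Kcnj1 (ROMK), whose gene lies 28.1 kb from Kcnj5, had no read in the Ctrl and β-Mfn1KO libraries, up to 2 reads in β-Mfn2KO and 6 to 18 reads in β-Mfn1/2DKO. It passed the test (adjusted p = 0.0151) at a level of 0.0596 to 0.167 CPM in the deeper β-Mfn1/2DKO libraries, and no fold is given against a group at 0. Kcnj14 (Kir2.4), with 1 read over the 6 Ctrl libraries and 12 to 19 reads in each β-Mfn1/2DKO library, also passed (adjusted p = 0.00654), and 24.6% of its 75-base stretches are shared with other genes.

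The G protein-gated subunit Kcnj6 (Kir3.2) did not pass, at 6.39 to 11.9 CPM in Ctrl and 6.21 to 8.22 in β-Mfn1/2DKO (log2 fold change -0.27 ± 0.13, adjusted p = 0.187). The strong rectifier Kcnj2 (Kir2.1), at 2.33 to 4.50 and 3.11 to 5.36 CPM, did not pass either (0.32 ± 0.20, adjusted p = 0.34).

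Among voltage-gated pores, Kcna2 (Kv1.2, a delayed rectifier) had the smallest adjusted p. It was at 4.18 to 8.95 CPM in Ctrl (median 6.63), 5.12 to 7.17 in β-Mfn1KO, 5.04 to 10.8 in β-Mfn2KO and 15.6, 13.4, 16.5, 30.3 and 21.5 CPM in β-Mfn1/2DKO. The groups did not overlap with β-Mfn1/2DKO, where replicates 4 and 5 were the highest. Kcna2 rose by 1.55 ± 0.21 on the log2 scale (adjusted p = 1.8e-05) and by 1.22 without replicates 4 and 5 (adjusted p = 0.000197). It did not pass with depth class as a covariate (1.06, adjusted p = 0.151).

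Kcnh2 (ERG1), the most abundant voltage-gated pore gene, was at 133 to 157 CPM in Ctrl (median 139), 134 to 153 in β-Mfn1KO, 131 to 169 in β-Mfn2KO and 189, 182, 182, 172 and 157 CPM in β-Mfn1/2DKO. The groups touched at their edge, the lowest β-Mfn1/2DKO library matching the highest Ctrl library. Its rise was small and steady (0.31 ± 0.06, adjusted p = 0.00121) and passed in all 12 alternatives and with any 1 library left out. Its paralog Kcnh6 (ERG2) was at 49.1 to 60.5 CPM in Ctrl and 49.6 to 62 in β-Mfn1/2DKO, and did not pass (0.01 ± 0.07, 95% interval -0.14 to 0.16, adjusted p = 0.953).

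Of the less abundant pores, Kcnc1 (Kv3.1, a fast delayed rectifier) rose from 0.306 to 0.915 CPM to 1.04 to 1.93 CPM (log2 fold change 1.22 ± 0.30, adjusted p = 0.00554), with no overlap.

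Kcnq1 (KvLQT1) passed narrowly. It was at 1.47 to 2.89 CPM in Ctrl and 3.85, 3.02, 1.92, 4.49 and 8.38 CPM in β-Mfn1/2DKO, so that replicate 3 lay within the Ctrl range and replicate 5 far above it. The log2 fold change was 0.97 ± 0.33 (adjusted p = 0.0457) and 0.43 without replicates 4 and 5 (adjusted p = 0.465), and leaving out replicate 5 alone also ended the call (adjusted p = 0.216). Its gene contains the antisense RNA Kcnq1ot1, with which it shares 121 exonic bases, and whether the counting used strand is not given in the sources used here.

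The A-type channel genes Kcnd1 and Kcnd2, which encode rapidly inactivating Kv4.1 and Kv4.2, fell. Kcnd1 was at 8.29 to 10.1 CPM in Ctrl and 7.37, 7.5, 7.65, 5.93 and 8.08 CPM in β-Mfn1/2DKO, below every Ctrl library (log2 fold change -0.34 ± 0.10, adjusted p = 0.0174). Without replicates 4 and 5 Kcnd1 did not pass (-0.28, adjusted p = 0.0957).

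Kcnd2 was at 1.26, 1.33, 0.22, 1.10, 0 and 0.226 CPM in Ctrl, 0.24 to 0.803 in β-Mfn1KO, 0.545 to 1.10 in β-Mfn2KO and 0.186, 0.10, 0.162, 0.123 and 0.105 CPM in β-Mfn1/2DKO. Levels in Ctrl spread from 0 to 26 reads, and 1 Ctrl library had none, so the groups overlapped. The log2 fold change of -2.33 ± 0.54 against Ctrl (adjusted p = 0.00372) stood beside -2.73 ± 0.53 against β-Mfn2KO (adjusted p = 0.00114), whose lowest library was above the highest of β-Mfn1/2DKO. In libraries above 40000000 counts alone it was -2.89 (adjusted p = 0.00165).

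Among auxiliary subunits, Kcnip1 (KChIP1, a calcium-binding partner of Kv4 channels) rose and Kcnip4 (KChIP4, of the same family) fell. Kcnip1 was at 51.6 to 77.1 CPM in Ctrl (median 60.6), 56.5 to 75.2 in β-Mfn1KO, 53.7 to 59.1 in β-Mfn2KO and 80.3, 98.9, 90.6, 87.7 and 68.9 CPM in β-Mfn1/2DKO. Only replicate 5 lay within the Ctrl range, and the log2 fold change was 0.46 ± 0.10 (adjusted p = 0.00161).

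Kcnip4 was at 3.96 to 5.68 CPM in Ctrl and 3.13 to 3.82 in β-Mfn1/2DKO, without overlap (-0.43 ± 0.12, adjusted p = 0.0143). It did not pass without replicates 4 and 5 (-0.35, adjusted p = 0.128). The silent subunit gene Kcnf1 (Kv5.1, which modifies Kv2 channels) was at 2.78 to 8.33 CPM in Ctrl, 7.09 to 9.89 in β-Mfn2KO and 4.62, 4.37, 3.86, 2.17 and 2.47 CPM in β-Mfn1/2DKO. Its groups overlapped with Ctrl but not with β-Mfn2KO, and the log2 fold changes were -0.75 ± 0.25 (adjusted p = 0.044) and -1.27 ± 0.26 (adjusted p = 0.00161). Against Ctrl it did not pass without replicates 4 and 5 (-0.44, adjusted p = 0.315).

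Kcnab2, the gene of the voltage-gated auxiliary subunit Kvβ2, fell, and its level also varied among the other groups. It was at 7.37, 3.58, 3.23, 2.63, 2.39 and 3.98 CPM in Ctrl, 4.45 to 6.43 in β-Mfn1KO, 2.16 to 4.62 in β-Mfn2KO and 1.74 to 2.35 CPM in β-Mfn1/2DKO. Ctrl replicate 1 was the highest library of all and lay with β-Mfn1KO. The log2 fold change against Ctrl was -0.92 ± 0.24 (adjusted p = 0.00999), and -0.63 without Ctrl replicate 1 (adjusted p = 0.039).

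Kcnab2 lies on chromosome 4 (152390742 to 152477871, GRCm38), 4.49 Mb from Mfn2. Masp2 (148602554 to 148615499) and Zfp990 (145510759 to 145539188) lie on either side of Mfn2 there, and were chosen after their values were seen, for setting Ctrl replicate 1 and β-Mfn1KO apart from the other libraries. Kcnab2 did not separate these libraries in full, since β-Mfn2KO replicate 5 was at 4.62 CPM and the lowest β-Mfn1KO library at 4.45 CPM. Zfp990 was at 0 CPM in Ctrl replicate 1 and 0 to 0.12 CPM in β-Mfn1KO, against 3.31 CPM or more in every other library. Masp2 was at 0.0702 CPM in Ctrl replicate 1, 0 to 0.135 CPM in β-Mfn1KO and 0.601 CPM or more elsewhere.

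The 2 potassium channel genes nearest Mfn1 on chromosome 3 were Kcnmb3, 37.2 kb away and with at most 3 reads in any library, and Kcnmb2, 329 kb away. Kcnmb2 was at 82.5 to 104 CPM in Ctrl, 81 to 97.3 in β-Mfn1KO and 68.6 to 96.5 in β-Mfn1/2DKO, and did not pass in either knockout (log2 fold change -0.05 ± 0.09 and -0.18 ± 0.08, adjusted p = 0.952 and 0.181).

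Among calcium- and sodium-activated channels, the small-conductance channel gene Kcnn3 (SK3) was at 25 to 43.1 CPM in Ctrl (median 31.8), 32.1 to 44 in β-Mfn1KO, 22.8 to 31.6 in β-Mfn2KO and 20.4, 22.3, 25.4, 25 and 24.9 CPM in β-Mfn1/2DKO. It fell by 0.49 ± 0.12 on the log2 scale (adjusted p = 0.00473), with the highest β-Mfn1/2DKO libraries at the lower edge of Ctrl. Against β-Mfn2KO the difference did not pass (-0.21 ± 0.12, adjusted p = 0.29).

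The BK pore gene Kcnma1 was at 52 to 74.6 CPM in Ctrl (median 60.5) and 47.7 to 54.4 CPM in β-Mfn1/2DKO, and fell by 0.27 ± 0.08 (adjusted p = 0.0251). It did not pass without β-Mfn1/2DKO replicates 4 and 5 (-0.25, adjusted p = 0.112). The SK1 gene Kcnn1 moved the other way, from 2.81 to 5.41 CPM to 5.13 to 6.06 CPM (0.47 ± 0.14, adjusted p = 0.0215). Kcnt1, which encodes the sodium-activated channel Slack, was at 0.14 to 0.847 CPM in Ctrl, 0.0664 to 0.30 in β-Mfn1KO, 0.0681 to 0.585 in β-Mfn2KO and 1.10 to 1.44 CPM in β-Mfn1/2DKO. No library of another group reached the β-Mfn1/2DKO range (log2 fold change 1.71 ± 0.37, adjusted p = 0.00233, on 2 to 10 reads per Ctrl library).

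Among tandem-pore channels, the abundant Kcnk16 did not pass, at 250, 230, 247, 271, 316 and 220 CPM in Ctrl and 217, 252, 246, 194 and 185 CPM in β-Mfn1/2DKO (log2 fold change -0.22 ± 0.11, 95% interval -0.46 to 0.01, adjusted p = 0.195). Replicates 4 and 5 were its lowest β-Mfn1/2DKO libraries, and the log2 fold change was -0.08 without them (adjusted p = 0.751) and 0.12 with depth class as a covariate (adjusted p = 0.892). The acid-sensitive TASK-1 gene Kcnk3 was at 14.8 to 26.6 CPM in Ctrl and 21.0 to 28.6 CPM in β-Mfn1/2DKO, and did not pass against Ctrl (0.34 ± 0.12, adjusted p = 0.0646). It passed against β-Mfn2KO (0.38 ± 0.13, adjusted p = 0.0495).

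Kcnk5 (TASK-2) was at 1.54 to 5.07 CPM in Ctrl and 4.28, 3.84, 4, 6.55 and 5.73 CPM in β-Mfn1/2DKO, with overlap (0.72 ± 0.24, adjusted p = 0.0426). Without replicates 4 and 5 it did not pass (0.47, adjusted p = 0.293). Kcnk13 (THIK-1) was at 1.58 to 3.73 CPM in Ctrl and 1.3 to 1.95 in β-Mfn1/2DKO, and fell by 0.69 ± 0.19 (adjusted p = 0.0138).

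**Figure D4:**
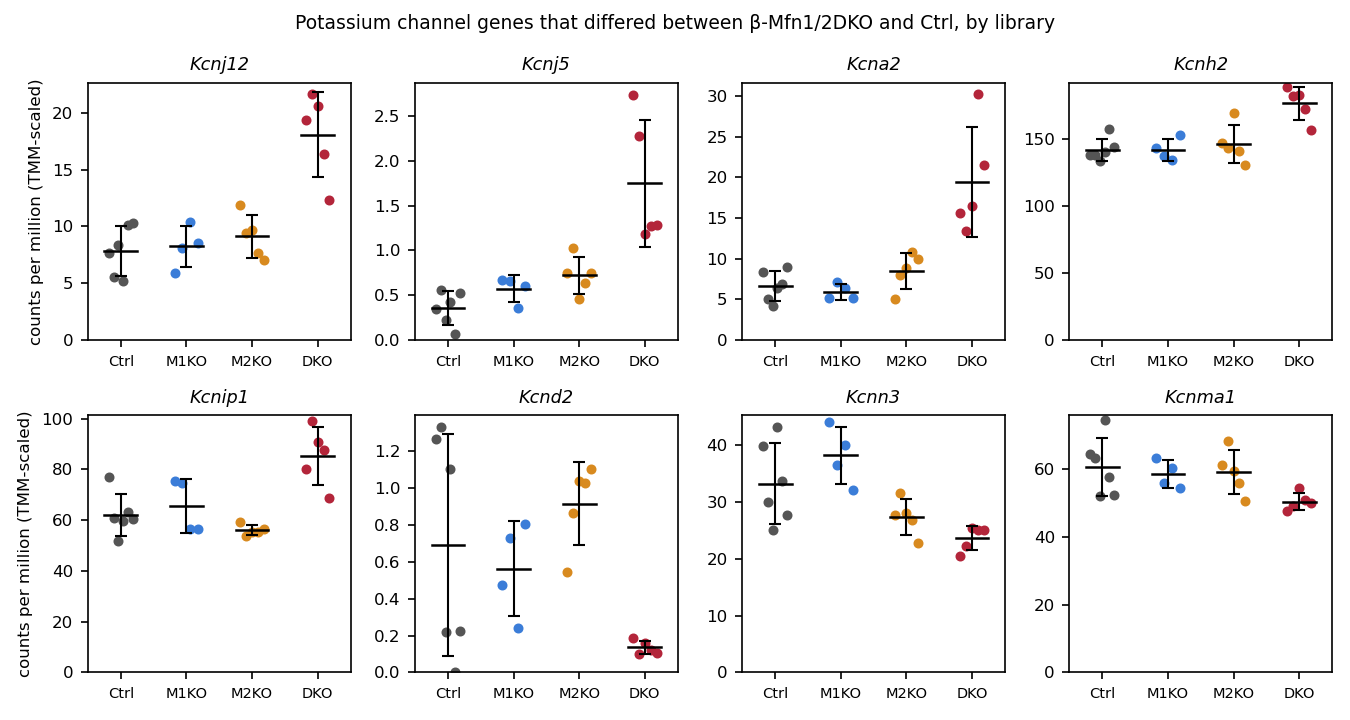
The 8 plotted potassium channel genes that passed the test in β-Mfn1/2DKO against Ctrl, in TMM-scaled CPM by library (points), with the group mean and SD (bars); M1KO, M2KO and DKO stand for β-Mfn1KO, β-Mfn2KO and β-Mfn1/2DKO. Kcnj12, Kcnj5 and Kcna2 separate β-Mfn1/2DKO from all other groups, whereas Kcnh2, Kcnip1, Kcnn3, Kcnma1 and Kcnd2 shift with some overlap.

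Of a list of 17 potassium channel genes known for β-cell electrical activity, 3 rose (Kcnq1, Kcnn1 and Kcnh2) and 2 fell (Kcnn3 and Kcnma1), with a median log2 fold change of 0.01. In the same comparison 16.5% of all genes passed, and 29.5% of those with a mean of at least 0.5 CPM. Of this list Kcnn2 (SK2, -0.32), Kcnn4 (SK4, 0.09), Kcnd3 (Kv4.3, 0.19) and Kcnmb4 (a BK auxiliary subunit, 0.23) did not pass (adjusted p = 0.53, 0.88, 0.78 and 0.74).

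The single knockouts gave no potassium channel gene past the threshold. In β-Mfn2KO against Ctrl 0 of 92 passed by edgeR, 0 by DESeq2 and 7 had an unadjusted p under 0.05 (7.61%, against 4.22% of all genes), while 0.0559% of all genes passed. In β-Mfn1KO 0 of 92 passed by either tool, 7 had an unadjusted p under 0.05 (7.61%, against 7.44% of all genes), and 0.0279% of all genes passed. The KATP pair was near its Ctrl level in both, with log2 fold changes of 0.03 ± 0.08 and -0.11 ± 0.08 for Abcc8 and of 0.03 ± 0.08 and -0.02 ± 0.08 for Kcnj11 in β-Mfn2KO and β-Mfn1KO. The 95% intervals of these 4 differences lay within -0.28 and 0.20. Abcc9 had 0.48 ± 0.22 in β-Mfn1KO (adjusted p = 0.668) and Kcnj5 0.99 ± 0.37 in β-Mfn2KO (adjusted p = 0.925), neither past the threshold.

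**Figure D5:**
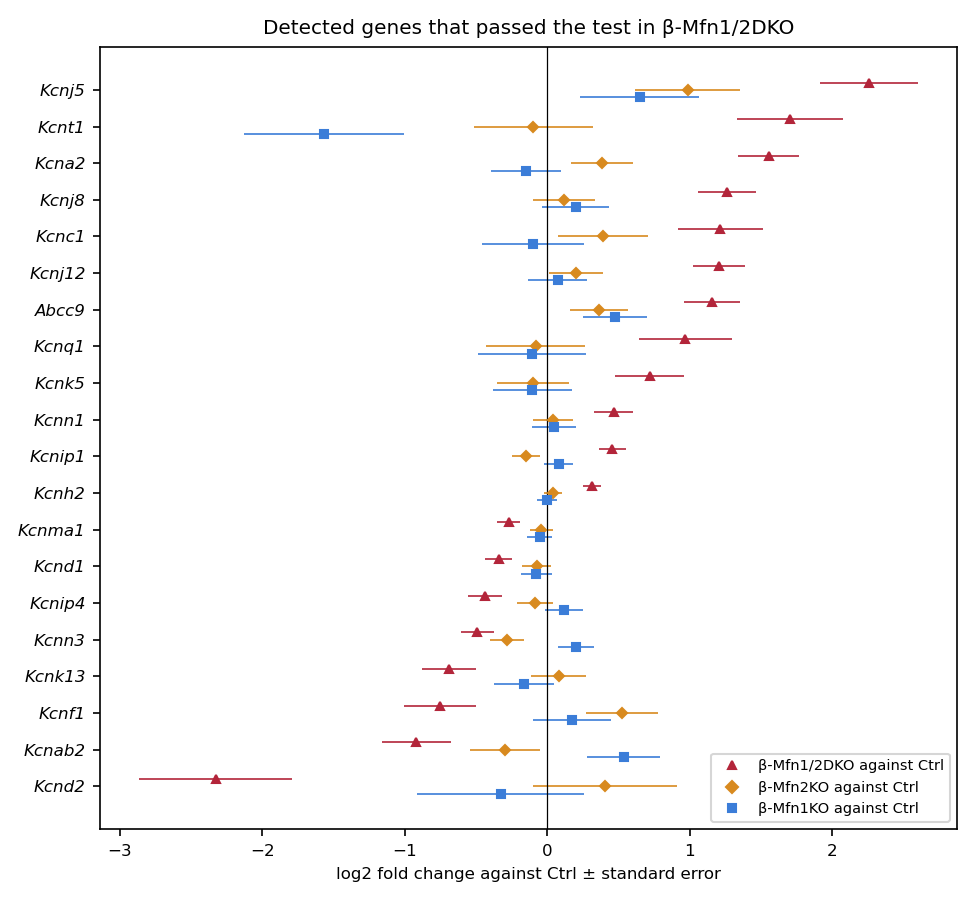
Log2 fold change against Ctrl ± standard error in β-Mfn1/2DKO (triangles), β-Mfn2KO (diamonds) and β-Mfn1KO (squares) for 20 detected potassium channel genes that passed the test in β-Mfn1/2DKO; the 3 comparisons share the Ctrl libraries. β-Mfn1/2DKO values run from -2.33 for Kcnd2 to 2.26 for Kcnj5, and no single knockout value passed the test.

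β-Mfn1/2DKO was also compared with β-Mfn2KO, a comparison in which both groups hold libraries above 40000000 counts. Of the 92 genes 18 passed, 14 higher and 4 lower, while 13% of all genes passed, 7.09% higher and 5.9% lower. Of the 23 genes that passed against Ctrl, 14 also passed here, and the comparisons share the β-Mfn1/2DKO libraries. Kcnip3 (KChIP3, 0.56 ± 0.17, adjusted p = 0.0328) passed here and not against Ctrl, as did Kcnk3 and Kcna7. Kcna7 (Kv1.7) had 1 to 6 reads per β-Mfn2KO library.

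When only libraries above 40000000 counts were kept, 2 β-Mfn2KO libraries, both male, were set against 5 β-Mfn1/2DKO libraries of both sexes. In that fit 9 potassium channel genes passed, and 1805 of all 28632 genes. Of these β-Mfn2KO libraries, replicate 4 had the acinar sum of 10873 CPM and replicate 5 a macrophage sum of 764 CPM. Kcnj12 (1.34, adjusted p = 0.00936), Kcnj8 (1.31, adjusted p = 0.0106), Kcnip1 (0.66, adjusted p = 0.0214) and Kcnh2 (0.42, adjusted p = 0.0285) were among the 9 genes. Abcc9 (0.62, adjusted p = 0.17), Kcna2 (0.95, adjusted p = 0.093) and Kcnj5 (1.38, adjusted p = 0.0864) were not. In these libraries Abcc8 was at 0.00 (adjusted p = 0.998) and Kcnj11 at -0.01 (adjusted p = 0.978).

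An interaction term asked whether loss of Mfn1 acted differently in the absence and in the presence of Mfn2. Of the 92 genes 4 passed, against 5.92% of all genes. They were Kcnt1 (3.37 ± 0.67, adjusted p = 0.00356), Kcna2 (1.32 ± 0.33, adjusted p = 0.017), Kcnip1 (0.53 ± 0.14, adjusted p = 0.0314) and Kcnf1 (-1.45 ± 0.37, adjusted p = 0.0214). The remaining genes did not pass this test, so their larger change in β-Mfn1/2DKO was not shown to exceed the sum of the single knockouts. Between males and females 0 of 92 genes passed by edgeR and by DESeq2, 10 had an unadjusted p under 0.05 (10.9%, against 10.6% of all genes), and 0.126% of all genes passed.

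Genes that work beside the channels were counted from lists of their own in β-Mfn1/2DKO against Ctrl, where 16.5% of all genes passed and 29.5% of those with a mean of at least 0.5 CPM. Of 11 channel partners with a row 4 rose, namely Lrrc55 (2.7), a BK auxiliary protein, Ank2 (0.67), an ankyrin that anchors KATP channels, the syntaxin gene Stx1a (0.32) and Nedd4l (0.26), a ubiquitin ligase of ion channels. Of 14 potassium pump and cotransporter genes the chloride exporter Slc12a5 rose (0.45), and the sodium pump β subunits Atp1b1 (-0.28) and Atp1b2 (-0.52) fell. Of 26 other genes of membrane excitability 5 rose and 2 fell. The pacemaker channel genes Hcn2 (0.25) and Hcn3 (0.26), the calcium channel subunit Cacnb3 (0.44), the volume-regulated anion channel subunit Lrrc8a (0.52) and the chloride channel Ano1 (1.65) rose, and the cation channels Trpm5 (-1.06) and Trpc1 (-0.30) fell. Ano1, which acinar cells also use, was at -0.10 without β-Mfn1/2DKO replicates 4 and 5 (adjusted p = 0.949). The calcium channel pore genes Cacna1c (0.08) and Cacna1d (0.13) did not pass (adjusted p = 0.50 and 0.18).

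Markers of other cell types were counted as well. Of all genes 16.5% passed against Ctrl, and 29.5% of those with a mean of at least 0.5 CPM. In β-Mfn1/2DKO against Ctrl 14 of 17 acinar markers rose and 1 fell, 3 of 7 duct markers, 1 of 7 α-cell markers and 1 of 5 Schwann cell markers rose, 1 of 6 macrophage markers fell, and none of 4 δ-cell and 2 PP-cell markers passed. The acinar sum was 464 to 2950 CPM in Ctrl, and of the β-Mfn1/2DKO libraries only replicates 4 and 5 lay above that range. The part of these cell types in the potassium channel differences was not tested beyond the values without the libraries rich in acinar markers. A fit with the acinar level as a covariate gave 20 passing potassium channel genes, and 4140 of all 28632 genes.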

How the data were processed

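Total islet RNA of 20 mice was sequenced with 151-base paired-end reads. Per the labels and the study's methods the authors used cutadapt 2.3, FastQC 0.11.8, STAR 2.6.1b with GRCm38, RSEM 1.3.1 and DESeq2 1.26.0. They deposited raw counts per Ensembl gene, which were used for every result, and a second table of counts divided by their normalization factors (unit signal), used only for 1 alternative. Groups followed the labels.

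Counts were scaled by TMM and fitted in edgeR 4.0.16 (R 4.3.3) with 1 coefficient per genotype over all 20 libraries and no filter, using the quasi-likelihood test with Benjamini-Hochberg adjustment over all 28632 genes. The 95% intervals use the quasi-likelihood degrees of freedom. Symbols, positions and exon lengths came from GENCODE M21, which named 28561 of the identifiers. Promoters came from RefSeq. The tests of each knockout against Ctrl were run on simulated counts with a fixed spread and no changed low genes. Other comparisons were not simulated. DESeq2 1.42.0 was an alternative, beside other scalings, filters, covariates, thinning and left-out libraries. Depth limits low genes in Ctrl, and nothing says that replicates shared a litter or day.

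Named genes were the KATP subunits, a list of β-cell electrical channels, detected members past the threshold against Ctrl, the most abundant member of each class, members within 5 Mb of Mfn1 or Mfn2, both mitofusins, and partner genes past the threshold. Genes outside this rule were named after their values were seen. A few members are included in the counts and class sums but are not reported here. The members and lists were chosen with earlier results of these data known.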

Additional observations from a re-analysis of the deposited data

Results flagged for a closer look

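Of 128 groups of 4 to 6 libraries examined for a single library far from the rest (32 genes in 4 genotypes), 8 held one, and chance gives about 5% of groups. Kcnab2 in Ctrl replicate 1 was at 7.37 CPM against 2.39 to 3.98 CPM in the other Ctrl libraries. Kcnn1 in β-Mfn1KO replicate 3 was at 3.24 CPM against 4.58 to 4.79. The intermediate-conductance channel Kcnn4, which macrophages also use, was at 2.15 CPM in β-Mfn2KO replicate 5 (others 0.545 to 0.989) and at 2.3 CPM in β-Mfn1/2DKO replicate 4 (others 0.98 to 1.26). These libraries had the highest macrophage marker sums of their groups, 764 and 152 CPM, while Ctrl replicate 6, with a sum of 554 CPM, had Kcnn4 at 1.73 CPM within the Ctrl range, and the part of macrophages was not tested. Kcnt1 was at 0.847 CPM in Ctrl replicate 4 (10 reads, others 0.14 to 0.376) and at 0.30 CPM in β-Mfn1KO replicate 3 (5 reads, others 0.0664 to 0.0674). Kcnmb3 was at 0.0752 CPM in Ctrl replicate 6 and at 0.0664 CPM in β-Mfn1KO replicate 2, which is 1 read in each, with none in the rest of those groups.

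The effect of Mfn1 loss differed by an interaction test between islets without and with Mfn2 for 4 genes. On the log2 scale the difference was 3.37 for Kcnt1 (edgeR adjusted p = 0.00356), 1.32 for Kcna2 (adjusted p = 0.017), 0.53 for Kcnip1 (adjusted p = 0.0314) and -1.45 for Kcnf1 (adjusted p = 0.0214). For Kcnt1 the β-Mfn1KO libraries held 1 to 5 reads each, and 3 of the 4 lay below every Ctrl library.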

How the results depend on the processing

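In β-Mfn1/2DKO against Ctrl 23 potassium channel genes passed, and the alternatives gave 16 to 24, except 15 with a fold change over 1.5 required and 4 with depth class as a covariate, which was chosen after seeing the data. Of all 28632 genes 4710 passed, 1491 with that fold change required and 728 with depth class. For the KATP genes the count of 2 became 1 with depth class, and for the named genes 21 became 4. Against β-Mfn2KO the 18 became 11 without β-Mfn1/2DKO replicates 4 and 5, 9 with libraries above 40000000 counts only, 11 with depth class, and 27 with DESeq2, 12 with the authors' factors and 12 after thinning. Over all genes 3719 became, in the same order, 2484, 1805, 1683, 5118, 2962 and 3015. The interaction count of 4 became 11 with DESeq2, 7 with total-count scaling, 8 with filterByExpr and 2 with depth class. Over all genes 1694 became 2892, 2292, 2349 and 911 in these alternatives. The causes were not tested, beyond the fewer libraries or genes that some alternatives hold by construction. Leaving out each library in turn gave 17 to 24 genes against Ctrl, 13 to 19 against β-Mfn2KO, 3 to 7 for the interaction (7 without Ctrl replicate 1), 2 KATP genes throughout and 15 to 22 named genes, and 15 of the 23 genes passed in all 20 of these fits. Ano1 reversed to -0.10 without β-Mfn1/2DKO replicates 4 and 5. Detection gave 58 genes, 71 at a minimum of 0.1 CPM and 51 at 1 CPM. Replicate numbers were not taken to pair the samples, since no label ties them and not every pair had a correlation of deviations over 0.1. Of 27 pairs with the same number 19 did, with a mean of 0.182 against -0.0394 for pairs with different numbers. With the replicate number as a block, 22 genes passed against Ctrl, 21 of them among the 23 (Kcnj1, adjusted p = 0.0514, and Kcnq1, adjusted p = 0.093, did not), 18 against β-Mfn2KO and 4 for the interaction. The single knockouts and the sexes had 0 genes under every alternative run for them. The shallow Ctrl libraries limit genes with few reads, such as Kcnj1, Kcnj14, Kcnd2, Kcnt1 and Kcnj5.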
